A study of Rattus norvegicus with 21 samples.

Results

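Cholesterol synthesis genes were followed on 21 Affymetrix arrays of rat NBTII bladder carcinoma cells along a time course of FGF1. The set was named as Hmgcs1, Idi1, Fdps, Fdft1, Sqle, Cyp51, Dhcr7 and Insig1, and every probe set with 1 of these names as its single gene symbol in the platform annotation was taken. Of the 8 genes, 7 were matched, by 10 of the 15866 probe sets tested and among 10411 gene symbols: Idi1, Fdft1 and Cyp51 by 2 probe sets each and Fdps, Sqle, Dhcr7 and Insig1 by 1 each. The expression of Hmgcs1 was not analysed here, and only its promoter is used. None of the 7 measured genes takes up cholesterol, so the set covers synthesis and its feedback control, and uptake genes appear below only as a separate list.

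Cells build cholesterol from acetyl-CoA by the mevalonate pathway. Idi1 and Fdps make the isoprenoid units, Fdft1 joins them into squalene, Sqle oxidises squalene, and Cyp51 and Dhcr7 work on the sterol rings. The transcription factors SREBP1 and SREBP2, encoded by Srebf1 and Srebf2, switch these genes on when sterols are scarce, and Insig1 is both their target and an endoplasmic reticulum protein that holds SREBP back when sterols are plentiful. Dividing epithelial and carcinoma cells use the pathway for new membrane and for prenylated proteins.

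The arrays held 10 samples of NBTII, an epithelial line, and 11 of NBTII-FGFR1, its derivative carrying transfected FGF receptor 1. Both lines received FGF1 at 20 ng/ml with heparin and were sampled at 0, 0.5, 2, 6, 24 and 48 h, where 0 h stands for control cells. Of the 12 groups of line and time, 9 had 2 arrays, and 1 array stood for NBTII at 0 h and for each line at 0.5 h. The labels give neither the promoter of the transfected receptor nor whether the line is 1 clone. No array after 0 h lacks FGF1, so FGF1, heparin, time in culture and handling cannot be told apart. Since the labels do not say that replicates came from separate cultures, the spread behind the p-values may be technical.

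The median log2 signal of an array was 6.13 to 6.22. Of the 8 epithelial markers, 6 lay above the lower quartile of the array (4.36 to 4.54) on all 21 arrays, while Krt19 (3.24 to 3.86) did so on none. The leukocyte genes Ptprc and Cd3e and the endothelial genes Pecam1 and Kdr lay above it on none, and 2 of 5 fibroblast and 2 of 4 leukocyte markers lay above it on all. No urothelial marker was matched. Fgfr1 read 4.56 to 7.58 in the NBTII-FGFR1 arrays of 0.5 to 48 h against 3.58 to 4.05 in all NBTII arrays. At 0 h it read 5.92 in NBTII-FGFR1 replicate 2 but 3.57 in what is labelled replicate 1 of NBTII-FGFR1 0 h, which goes against that label. This library is doubted below, and so is replicate 1 of NBTII-FGFR1 2 h, which an earlier analysis of these data had found standing apart. The 27 bacterial spike-in probe sets averaged 5.33 to 5.72 on the 18 arrays after 0 h, below the 6.13 to 6.64 of the 3 control arrays. The part of this shift in the differences from 0 h was not tested, and the steps between later times do not contain it.

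Promoter sequence was available for 6 of the 8 genes in the RefSeq table of build GRCr8, as 250 bases before and 50 after the start site. The windows were searched on both strands for letters of the sterol regulatory element, TCACNCCAC and CACCCCAC, for the CCAAT box, CCAAT, and for the GC box, GGGCGG, which bind SREBP, NF-Y and Sp1 respectively. Neither form of the sterol element was found in these 6 windows, against 1.12% and 2.7% of all 33469 windows. CCAAT was found in 4 of 6, against 37.5% of all, and GGGCGG in 5 of 6, against 33.1% of all. These are matches of letters within 1 window and not binding sites. The bases before the start sites of Idi1 (chr17:66547525-66547774, minus strand), Fdps (chr2:176804817-176805066, minus strand) and Dhcr7 (chr1:208444184-208444433, plus strand) are shown, because the windows hold different sets of the boxes. Capitals mark CCAAT and GGGCGG on either strand, so that ATTGG and CCGCCC are the reverse matches. The CCAAT matches of Idi1 begin at positions -66 and -35 from the start site, those of Fdps at -130 and -85, and the overlapping GC boxes of Dhcr7 at -39 and -34.
Idi1: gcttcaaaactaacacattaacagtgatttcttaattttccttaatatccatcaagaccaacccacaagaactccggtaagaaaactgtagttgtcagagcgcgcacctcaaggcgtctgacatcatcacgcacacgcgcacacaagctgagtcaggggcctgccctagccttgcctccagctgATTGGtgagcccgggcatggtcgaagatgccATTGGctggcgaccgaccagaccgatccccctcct
Fdps: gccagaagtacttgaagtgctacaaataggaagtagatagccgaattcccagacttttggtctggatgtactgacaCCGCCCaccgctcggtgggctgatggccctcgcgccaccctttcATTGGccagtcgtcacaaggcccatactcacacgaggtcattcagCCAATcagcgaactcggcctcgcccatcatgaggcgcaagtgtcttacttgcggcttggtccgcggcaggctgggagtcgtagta
Dhcr7: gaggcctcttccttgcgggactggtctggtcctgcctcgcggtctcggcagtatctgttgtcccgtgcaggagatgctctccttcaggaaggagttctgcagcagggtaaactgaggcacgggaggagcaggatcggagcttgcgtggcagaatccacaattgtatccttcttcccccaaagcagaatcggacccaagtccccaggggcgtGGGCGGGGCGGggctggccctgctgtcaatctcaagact

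Levels below are log2 signals, and differences are log2 differences ± SE from 1 limma model over all 21 arrays. A gene is said to have risen or fallen where its adjusted p was under 0.05 over all 15866 probe sets. Across both lines the arrays of 6 h were the low point. In NBTII the 6 h arrays lay below every other array of the line for 10 of 10 probe sets, as they did for 5.48% of all probe sets. In NBTII-FGFR1 this held for 7 of 10, against 7% of all, and the exceptions were Fdps, Insig1 and the second Idi1 probe set (1388872_at).

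**Figure D1:**
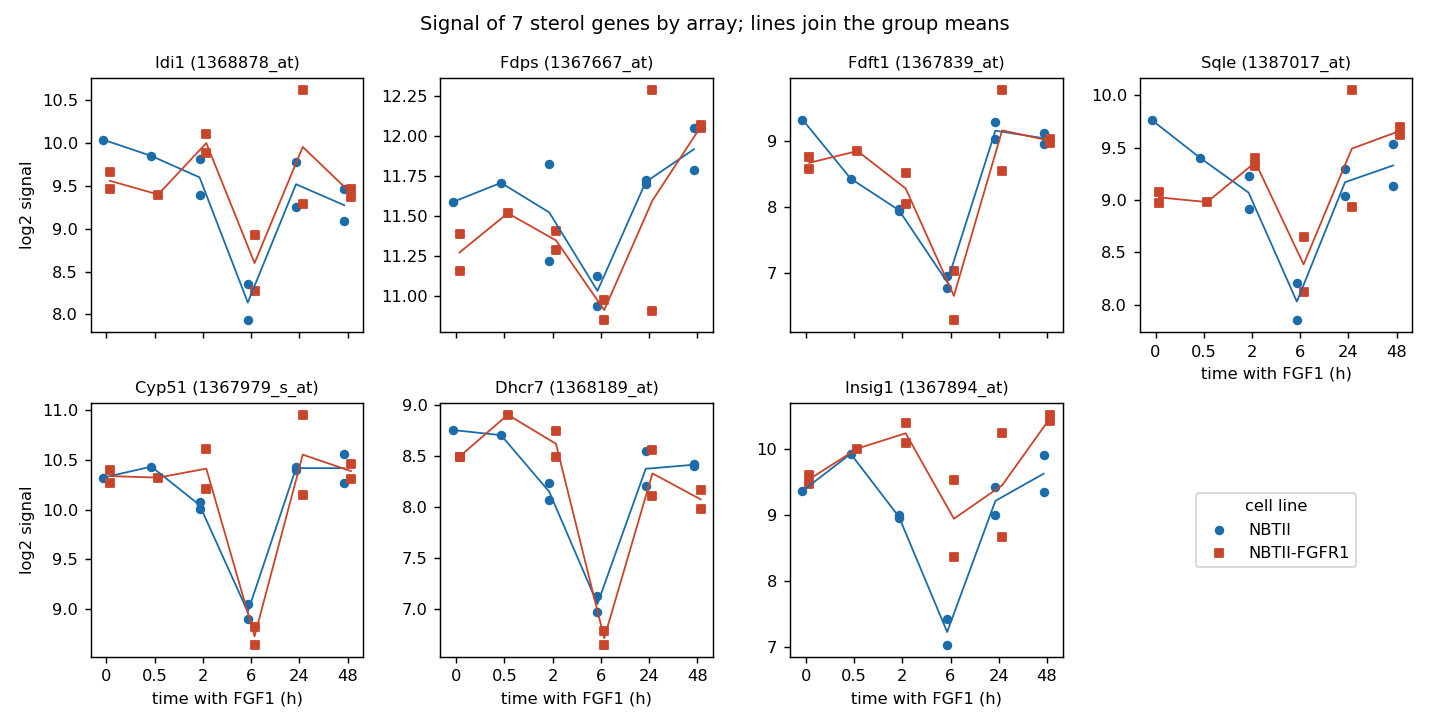
Log2 signal of the 7 measured genes on each array (points, blue circles for NBTII, red squares for NBTII-FGFR1) against the time with FGF1 in hours, 1 probe set per gene, with lines joining group means; the time axis is spaced by group and not to scale. Every panel is lowest at 6 h, and the NBTII-FGFR1 arrays of 24 h lie far apart in most panels.

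Idi1 interconverts the 2 isoprenoid building blocks. In NBTII its probe set 1368878_at read 10.04 at 0 h, 9.85 at 0.5 h, 9.39 and 9.81 at 2 h, 8.35 and 7.93 at 6 h, 9.26 and 9.78 at 24 h, and 9.09 and 9.46 at 48 h. In NBTII-FGFR1 it read 9.46 and 9.66 at 0 h, 9.40 at 0.5 h, 9.89 and 10.11 at 2 h, 8.27 and 8.93 at 6 h, 9.29 and 10.62 at 24 h, and 9.37 and 9.46 at 48 h. In each line the 6 h pair lay below all other arrays, and the other times overlapped in part. From 2 to 6 h Idi1 fell by 1.46 ± 0.33 in NBTII (adjusted p = 0.028) and fell by 1.40 ± 0.33 in NBTII-FGFR1 (adjusted p = 0.010).

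Fdps makes farnesyl diphosphate, the branch point to sterols, dolichol and prenyl groups. In NBTII it read 11.59 at 0 h, 11.71 at 0.5 h, 11.83 and 11.22 at 2 h, 11.13 and 10.94 at 6 h, 11.73 and 11.70 at 24 h, and 11.79 and 12.05 at 48 h. The NBTII-FGFR1 arrays read 11.39 and 11.16 at 0 h, 11.52 at 0.5 h, 11.41 and 11.29 at 2 h, 10.85 and 10.98 at 6 h, 10.91 and 12.29 at 24 h, and 12.05 and 12.07 at 48 h. Its range over the 21 arrays, 1.44, was the smallest of the 10 probe sets, and its 6 h values overlapped 1 array of 24 h in NBTII-FGFR1. The difference between 6 and 2 h was -0.49 ± 0.30 in NBTII (adjusted p = 0.55) and -0.44 ± 0.30 in NBTII-FGFR1 (adjusted p = 0.33). Neither passed the threshold, and the 95% intervals, -1.14 to 0.16 and -1.08 to 0.21, include falls as large as 1.

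Fdft1, squalene synthase, commits the pathway to sterols. In NBTII its probe set 1367839_at read 9.33 at 0 h, 8.43 at 0.5 h, 7.93 and 7.97 at 2 h, 6.76 and 6.95 at 6 h, 9.03 and 9.29 at 24 h, and 8.96 and 9.13 at 48 h. In NBTII-FGFR1 it read 8.58 and 8.76 at 0 h, 8.85 at 0.5 h, 8.51 and 8.05 at 2 h, 6.27 and 7.02 at 6 h, 8.55 and 9.78 at 24 h, and 8.97 and 9.04 at 48 h. Its range, 3.51, was the widest of the 10. In NBTII the 2 h arrays already lay between the 0 h and the 6 h arrays. From 2 to 6 h Fdft1 fell by 1.63 ± 0.30 in NBTII-FGFR1 (adjusted p = 0.0023), and the NBTII difference of -1.09 ± 0.30 did not pass (adjusted p = 0.068).

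Sqle, squalene epoxidase, catalyses a slow step of the sterol branch. In NBTII it read 9.76 at 0 h, 9.40 at 0.5 h, 8.91 and 9.23 at 2 h, 7.85 and 8.21 at 6 h, 9.04 and 9.30 at 24 h, and 9.13 and 9.53 at 48 h. Its NBTII-FGFR1 levels were 8.97 and 9.08 at 0 h, 8.98 at 0.5 h, 9.32 and 9.40 at 2 h, 8.12 and 8.65 at 6 h, 8.93 and 10.05 at 24 h, and 9.62 and 9.70 at 48 h. Both 6 h pairs lay below all other arrays of their line. Sqle fell by 0.97 ± 0.28 from 2 to 6 h in NBTII-FGFR1 (adjusted p = 0.027), and its difference in NBTII, -1.04 ± 0.28, did not pass (adjusted p = 0.055).

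Cyp51 removes a methyl group from lanosterol, the first sterol. In NBTII its probe set 1367979_s_at read 10.32 at 0 h, 10.43 at 0.5 h, 10.01 and 10.08 at 2 h, 8.90 and 9.05 at 6 h, 10.40 and 10.43 at 24 h, and 10.27 and 10.56 at 48 h. In NBTII-FGFR1 it read 10.27 and 10.40 at 0 h, 10.32 at 0.5 h, 10.61 and 10.21 at 2 h, 8.64 and 8.82 at 6 h, 10.15 and 10.95 at 24 h, and 10.31 and 10.46 at 48 h. The 6 h arrays stood apart from all others in both lines, which otherwise stayed between 10.01 and 10.95. From 2 to 6 h Cyp51 fell by 1.07 ± 0.20 in NBTII (adjusted p = 0.012) and fell by 1.68 ± 0.20 in NBTII-FGFR1 (adjusted p = 0.00012).

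Dhcr7 reduces the immediate precursor to cholesterol. In NBTII it read 8.75 at 0 h, 8.70 at 0.5 h, 8.06 and 8.23 at 2 h, 6.97 and 7.12 at 6 h, 8.54 and 8.20 at 24 h, and 8.42 and 8.40 at 48 h. In the transfected line it read 8.49 and 8.49 at 0 h, 8.90 at 0.5 h, 8.74 and 8.49 at 2 h, 6.64 and 6.78 at 6 h, 8.10 and 8.55 at 24 h, and 7.98 and 8.16 at 48 h. The 6 h pairs were again clear of all other arrays. Dhcr7 had the smallest adjusted p of the set at this step: it fell by 1.10 ± 0.15 in NBTII (adjusted p = 0.0019) and fell by 1.91 ± 0.15 in NBTII-FGFR1 (adjusted p = 5.1e-06).

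Insig1, the feedback regulator, was the member whose mean over 2 to 48 h differed between the lines. In NBTII it read 9.36 at 0 h, 9.92 at 0.5 h, 8.99 and 8.95 at 2 h, 7.03 and 7.43 at 6 h, 9.0 and 9.42 at 24 h, and 9.34 and 9.90 at 48 h. NBTII-FGFR1 gave 9.47 and 9.60 at 0 h, 10 at 0.5 h, 10.38 and 10.08 at 2 h, 8.36 and 9.52 at 6 h, 8.66 and 10.23 at 24 h, and 10.42 and 10.51 at 48 h. In NBTII the 6 h pair lay far below the rest, whereas in NBTII-FGFR1 it overlapped the 0 h and 24 h arrays. From 2 to 6 h Insig1 fell by 1.74 ± 0.41 in NBTII (adjusted p = 0.030) and fell by 1.29 ± 0.41 in NBTII-FGFR1 (adjusted p = 0.041).

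Counted over the set, the fall between 2 and 6 h reached 8 of 10 probe sets and 6 of 7 genes in NBTII-FGFR1, where 9.59% of all probe sets fell. In NBTII it reached 4 of 10 probe sets, 1 each for Idi1, Cyp51, Dhcr7 and Insig1, where 1.08% of all probe sets fell. The median difference over the 10 probe sets was -1.35 in NBTII-FGFR1, against 0.08 over all probe sets, and -1.08 in NBTII, against -0.01. The 6 h arrays lay below the 2 h arrays for 10 of 10 probe sets in each line, as they did for 20.1% of all probe sets in NBTII and 21.9% in NBTII-FGFR1. The second probe sets were lower at 6 h as well. Fdft1 1389906_at fell by 0.83 ± 0.20 (adjusted p = 0.010) and Cyp51 1387020_at fell by 1.58 ± 0.30 (adjusted p = 0.0024) in NBTII-FGFR1. Idi1 1388872_at differed by -1.21 ± 0.41 there (adjusted p = 0.054), and these 3 probe sets did not pass in NBTII.

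The count in NBTII-FGFR1 was 5 without NBTII-FGFR1 2 h replicate 1, where Sqle, Insig1 and Fdft1 1389906_at no longer passed, and 5 without both doubted arrays. It was also 5 without NBTII-FGFR1 6 h replicate 1, where the Insig1 difference was -0.71. In NBTII the count was 1 without 2 h replicate 1, 6 h replicate 1 or 6 h replicate 2, 2 without 2 h replicate 2, 7 when an NBTII-FGFR1 array of 6 h was left out (either one) and 9 when an NBTII-FGFR1 array of 24 h was (either one). The median stayed between -1.18 and -1.01 in these NBTII fits. Dhcr7 kept its call in all 18 fits that left out 1 array, in both lines.

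Between 6 and 24 h the genes returned. In NBTII 9 of 10 probe sets rose, all but Fdps, where 3.93% of all probe sets rose, and in NBTII-FGFR1 8 of 10 rose, all but Fdps and Insig1, where 8.98% of all did. The medians were 1.41 and 1.5, against 0.03 and -0.05 over all probe sets. Fdft1, squalene synthase, rose the most of the set, by 2.31 ± 0.30 in NBTII (adjusted p = 0.00045), which is 4.95-fold, and by 2.52 ± 0.30 in NBTII-FGFR1 (adjusted p = 0.00015), which is 5.74-fold. Dhcr7 rose by 1.32 ± 0.15 in NBTII (adjusted p = 0.00021) and 1.61 ± 0.15 in NBTII-FGFR1 (adjusted p = 3e-05). Cyp51 1367979_s_at rose by 1.44 ± 0.20 (adjusted p = 0.00075) and 1.82 ± 0.20 (adjusted p = 9.8e-05). The rises of Idi1 and Sqle lay between 1.10 and 1.46 in both lines. Fdps differed by 0.68 ± 0.30 in each line (adjusted p = 0.21 in NBTII and 0.15 in NBTII-FGFR1), so its values did not pass in either direction.

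Insig1 rose by 1.98 ± 0.41 in NBTII (adjusted p = 0.0078), while its difference in NBTII-FGFR1 was 0.51 ± 0.41 (adjusted p = 0.44). The 24 h arrays lay above the 6 h arrays for 10 of 10 probe sets in NBTII, against 30.5% of all, and for 7 of 10 in NBTII-FGFR1, against 25.4% of all, where Fdps, Insig1 and Idi1 1388872_at overlapped.

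**Figure D2:**
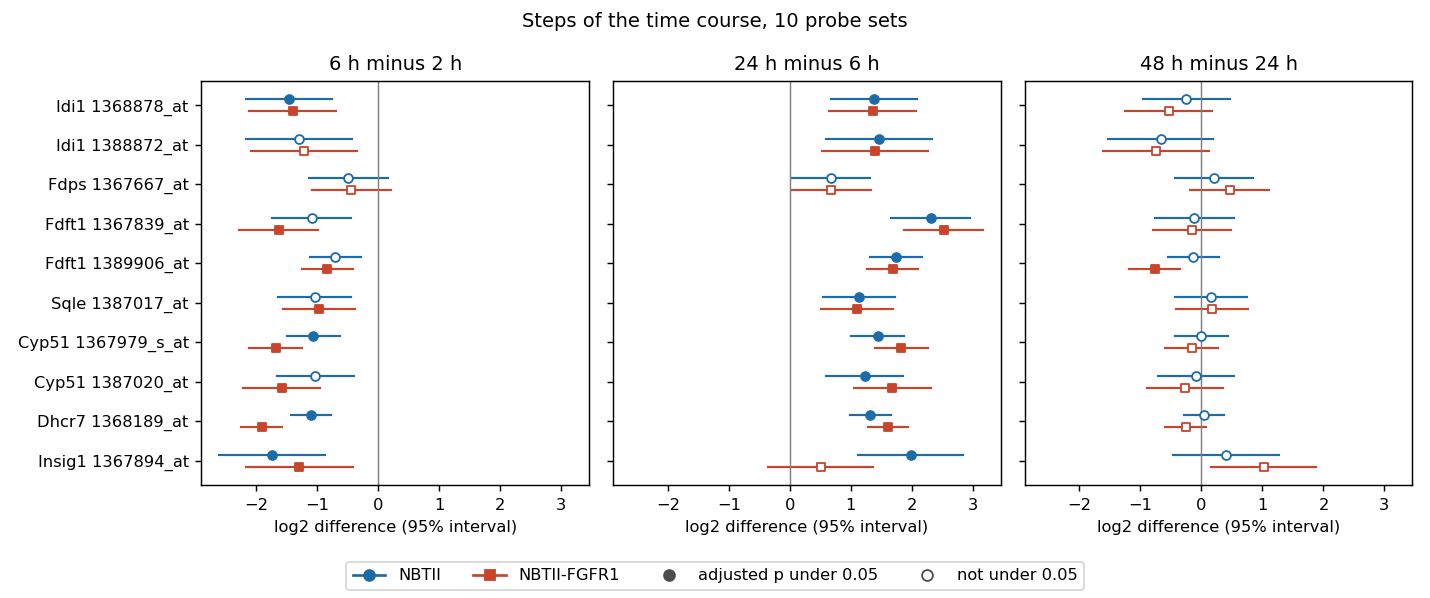
Log2 differences with 95% intervals for the 10 probe sets over 3 steps of the time course (6 h minus 2 h, 24 h minus 6 h, 48 h minus 24 h), NBTII in blue circles and NBTII-FGFR1 in red squares, filled where the adjusted p is under 0.05. All points lie left of 0 in the first step and right of 0 in the second, and most intervals of the third include 0.

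The size of the return in NBTII-FGFR1 depended on single arrays of 24 h and of 6 h. Replicate 2 of NBTII-FGFR1 at 24 h read higher than replicate 1 for 10 of 10 probe sets, by 0.45 (Dhcr7) to 1.62 (Idi1 1388872_at) and by 1.18 at the median, against -0.01 over all probe sets, of which 48.4% read higher. Fgfr1 also differed between them, 6.14 against 4.56; its part in the gap was not tested. Without replicate 2 the count of risen probe sets was 5 and the median 0.92, with Idi1 at 0.69 and 0.58 and Sqle at 0.54 no longer passing. Without replicate 1 it was 10 and the median 2.05. Without NBTII-FGFR1 6 h replicate 1 it was 5, and those 2 arrays of 6 h also differed, by 0.59 at the median. In NBTII the count was 4 without 6 h replicate 1 or without 24 h replicate 2, and 6 without 6 h replicate 2 or 24 h replicate 1. Both Fdft1 probe sets, Cyp51 1367979_s_at and Dhcr7 kept their calls in all 18 fits that left out 1 array, in both lines.

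**Figure D3:**
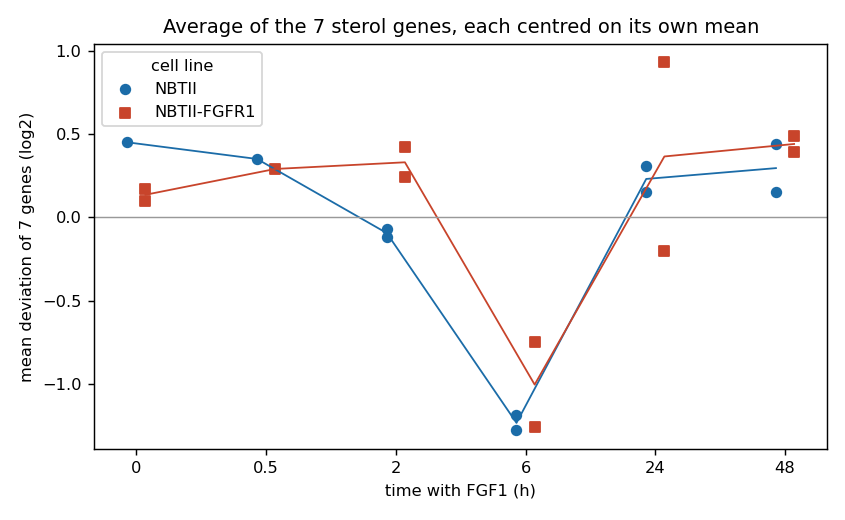
Mean of the 7 genes on each array after centring each gene on its own mean over 21 arrays (log2), against time with FGF1 in hours (spaced by group), NBTII in blue circles and NBTII-FGFR1 in red squares, lines through group means. The 6 h arrays lie between -1.28 and -0.75, and the 24 h arrays of NBTII-FGFR1 at -0.20 and 0.93.

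After 24 h few probe sets passed. From 24 to 48 h 0 of 10 probe sets passed in NBTII by limma, and 0 had an unadjusted p under 0.05, where 0.063% of all probe sets were called. In NBTII-FGFR1 2 of 10 had an unadjusted p under 0.05 by limma, and Insig1 differed by 1.02 ± 0.41 (adjusted p = 0.15). The median of the 10 there was -0.21, but -0.67 without 24 h replicate 1 and 0.25 without 24 h replicate 2. Of the 10 there, 1 fell, Fdft1 1389906_at, at -0.77 ± 0.20 (adjusted p = 0.023), where 5.44% of all fell. It read 7.61 and 8.40 at 24 h and 7.26 and 7.22 at 48 h, so the groups did not overlap. The other Fdft1 probe set differed by -0.16 ± 0.30 (adjusted p = 0.86). The count was 0 without either NBTII-FGFR1 48 h array, and without 24 h replicate 2 this difference was -0.37 and no longer passed, while 2 other probe sets did.

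Against the 0 h control cells, the 6 h arrays were lower as well. In NBTII 8 of 10 probe sets and 6 genes fell, where 2.2% of all probe sets fell, with a median of -1.76. The differences were -2.47 ± 0.37 for Fdft1 (adjusted p = 0.0013), -2.12 ± 0.50 for Insig1 (adjusted p = 0.020) and -1.90 ± 0.41 for Idi1 (adjusted p = 0.013). Sqle fell by 1.73 ± 0.34 (adjusted p = 0.0075), and Dhcr7 fell by 1.71 ± 0.19 (adjusted p = 0.00018). This comparison rests on 1 control array, assumed to vary like the others. The count was 5 without NBTII 6 h replicate 1. In NBTII-FGFR1 5 of 10 probe sets fell, of Fdft1, Cyp51 and Dhcr7, where 11.9% of all fell, with a median of -0.94. The count was 4 when either 0 h array was left out, the doubted one or replicate 2, and in both fits Cyp51 1387020_at no longer passed (adjusted p = 0.17 and 0.093 in limma's test). Without NBTII-FGFR1 6 h replicate 1 it was also 4, and the median was -0.53.

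The early times showed less. At 0.5 h, over both lines, 0 of 10 probe sets passed by limma and 1 had an unadjusted p under 0.05, where 2.2% of all were called. At 2 h against 0 h 3 of 10 probe sets in NBTII and 2 in NBTII-FGFR1 had an unadjusted p under 0.05 by limma. Fdft1 1367839_at differed by -1.38 ± 0.37 in NBTII (adjusted p = 0.061) and by -0.39 ± 0.30 in NBTII-FGFR1 (adjusted p = 0.47). The second Fdft1 probe set was the 1 of 10 that fell in NBTII, at -1.10 ± 0.24 (adjusted p = 0.022), where 0.983% of all fell. It read 7.99 at 0 h and 6.96 and 6.83 at 2 h. The same probe set was the 1 of 10 that fell in NBTII-FGFR1, at -0.66 ± 0.20 (adjusted p = 0.048), where 4.08% of all fell. It read 7.82 and 7.78 at 0 h and 7.38 and 6.90 at 2 h. The NBTII call was lost without either NBTII 2 h array, where the difference was as small as -1.03, and the NBTII-FGFR1 call in 15 of 18 fits that left out 1 array, where it ranged from -0.90 to -0.42.

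The late times were compared with 0 h in the same way. In NBTII 0 of 10 probe sets passed at 24 h and 0 at 48 h against 0 h, and 0 had an unadjusted p under 0.05 by limma, where 0.939% and 0.908% of all were called. In NBTII-FGFR1 0 of 10 passed at 24 h, where 6.3% of all were called, and 0 at 48 h, where 21.4% were; 1 and 5 had an unadjusted p under 0.05. At 24 h the count was 5 without NBTII-FGFR1 24 h replicate 1, and at 48 h it was 5 when an NBTII-FGFR1 array of 24 h was left out (either one) and 1 when an array of 2 h was (either one). In NBTII-FGFR1 the largest differences at 48 h were Insig1 at 0.93 ± 0.41 (adjusted p = 0.13), Fdps at 0.79 ± 0.30 (adjusted p = 0.080) and Sqle at 0.63 ± 0.28 (adjusted p = 0.13). Fdft1 1389906_at, at -0.56 ± 0.20 (adjusted p = 0.054), and Dhcr7, at -0.43 ± 0.15 (adjusted p = 0.065), were lower, so the differences went in both directions. The other Fdft1 probe set differed by 0.34 ± 0.30 (adjusted p = 0.52). In NBTII the largest differences at 48 h were those of the Idi1 probe sets 1388872_at, at -1.06 ± 0.50 (adjusted p = 0.42), and 1368878_at, at -0.77 ± 0.41 (adjusted p = 0.50). Missing the threshold does not show that the levels were the same.

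Between the lines, the mean level of Insig1 differed. Averaged over 2 to 48 h, Insig1 was 1.01 ± 0.20 higher in NBTII-FGFR1 than in NBTII (2.02-fold, adjusted p = 0.0037). It was the 1 of 10 probe sets that passed, where 8.34% of all were higher. This count is near that share, so it says nothing particular about the set. By the levels given above, both NBTII-FGFR1 arrays lay above both NBTII arrays at 2, 6 and 48 h, and at 24 h they overlapped. The call held in all 18 fits that left out 1 array, with differences from 0.82 to 1.21, while the count over the set was 3 without NBTII-FGFR1 24 h replicate 1. At 6 h alone the difference was 1.71 ± 0.41 (adjusted p = 0.048), again the 1 of 10 that passed, where 0.611% of all were higher. That call was lost in 13 of the 18 fits, and the difference was 1.13 without NBTII-FGFR1 6 h replicate 2. For the other 9 probe sets the mean line difference lay between -0.07 and 0.36, and the arrays of the lines over 2 to 48 h overlapped for 10 of 10, Insig1 included; they were apart for 0.725% of all.

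The steps themselves were compared between the lines by an interaction term. For 6 h against 2 h 0 of 10 probe sets passed by limma and 2 had an unadjusted p under 0.05, where 0.132% of all were called. Dhcr7 came nearest, with a fall larger in NBTII-FGFR1 by a difference of -0.81 ± 0.22 (adjusted p = 0.12), and 1 probe set passed without NBTII 2 h replicate 2 or without NBTII-FGFR1 2 h replicate 2. For 24 h against 6 h 0 passed and 1 had an unadjusted p under 0.05, where 0.0063% of all were called. The smaller rise of Insig1 in NBTII-FGFR1 gave -1.47 ± 0.57 (adjusted p = 0.41; 95% interval -2.70 to -0.25). For 48 h against 24 h 0 passed and 1 had an unadjusted p under 0.05, where 0.0126% were called.

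The 7 genes followed each other across the 12 groups. Pearson's r between the group means of 2 genes was 0.53 to 0.93 over the 21 pairs, with a median of 0.78. Against the mean of the other 6, Cyp51 was the closest (0.96), then Sqle (0.92), Fdft1 (0.89), Dhcr7 (0.87), Idi1 (0.86), Fdps (0.76) and Insig1 (0.74). The 2 probe sets of a gene correlated at 0.95 for Idi1, 0.94 for Fdft1 and 0.95 for Cyp51. All genes share the same arrays, and the 6 h groups carry much of each profile, so these are descriptions over 12 points.

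Outside the lipid lists, the 6 genes most like the average of the 7, of 562 with an SD of at least 0.5 over the group means, were Prkar2b (r = 0.919), Tsc22d3 (0.855), Lhfpl6 (0.848), Tlcd1 (0.838), Deptor (0.830) and Ung (0.788). Prkar2b, a regulatory subunit of protein kinase A, averaged 8.12 at 2 h, 7.52 at 6 h and 8.54 at 24 h in NBTII and 8.59, 7.26 and 8.81 in NBTII-FGFR1. Tsc22d3, a glucocorticoid-induced gene, averaged 6.75, 6.18 and 6.79 in NBTII and 6.93, 5.38 and 6.99 in NBTII-FGFR1. Ranked by Spearman's rho, 0 of these 6 stayed among the first 6, and the best of them, Tsc22d3, was at rank 7.

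Among other enzymes of cholesterol synthesis, calls were fewer at the fall than at the return. Of 11 further genes, each represented by the brightest probe set on average, 3 fell and 0 rose from 2 to 6 h in NBTII-FGFR1, where 18% of all 10411 genes were called in either direction, and 1 fell in NBTII, where 3.86% were. From 6 to 24 h 10 rose and 0 fell in NBTII-FGFR1 (16.5% of all genes called) and 6 rose and 0 fell in NBTII (9.37%). Msmo1, a sterol methyl oxidase that follows Cyp51, fell by 1.34 ± 0.22 and rose by 1.51 ± 0.22 in NBTII-FGFR1 (adjusted p = 0.0012 and 0.00063). In NBTII it fell by 1.25 ± 0.22 and rose by 1.49 ± 0.22 (adjusted p = 0.0083 and 0.0010). Hsd17b7, a sterol ketone reductase, fell by 0.88 ± 0.24 and rose by 1.58 ± 0.24 in NBTII-FGFR1 (adjusted p = 0.021 and 0.00073). Mvk, mevalonate kinase, differed by -0.29 ± 0.18 at the first step there (adjusted p = 0.27) and rose by 0.74 ± 0.18 at the second (adjusted p = 0.012). Without NBTII-FGFR1 24 h replicate 2 the count of 10 was 5, without NBTII-FGFR1 6 h replicate 1 it was 6, and without NBTII-FGFR1 2 h replicate 1 the count of 3 was 1.

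Of 8 regulators of the pathway, 4 fell and 0 rose from 2 to 6 h in NBTII-FGFR1, where 18% of all genes were called, and in NBTII 1 fell and 1 rose, where 3.86% were. Srebf1, which encodes SREBP1, fell by 1.90 ± 0.22 in NBTII-FGFR1 (adjusted p = 9.2e-05) and fell by 0.98 ± 0.22 in NBTII (adjusted p = 0.026). It then rose by 1.01 ± 0.22 (adjusted p = 0.0066) and by 0.81 ± 0.22 (adjusted p = 0.034). Srebf2, which encodes the factor most tied to cholesterol genes, fell by 0.52 ± 0.14 in NBTII-FGFR1 (adjusted p = 0.020) and differed by -0.50 ± 0.14 in NBTII (adjusted p = 0.071). Mbtps1 and Mbtps2, the proteases that release SREBP, differed by -0.50 ± 0.13 and -0.68 ± 0.17 in NBTII-FGFR1 and so fell (adjusted p = 0.016 and 0.012). Their differences in NBTII were -0.0 ± 0.13 and 0.02 ± 0.17, and neither passed. Insig2, the relative of Insig1, went the opposite way to Insig1 in NBTII, with differences of 0.67 ± 0.15 and then -0.50 ± 0.15 (adjusted p = 0.024 and 0.048). The count of 4 was 2 without NBTII-FGFR1 2 h replicate 1 and 1 without NBTII-FGFR1 6 h replicate 2. From 6 to 24 h 2 rose and 0 fell in NBTII-FGFR1, or 1 without 24 h replicate 1 and 0 without 6 h replicate 2, where 16.5% of all genes were called. In NBTII 1 rose and 1 fell at this step, where 9.37% were.

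Of 8 genes of uptake and traffic, 1 fell from 2 to 6 h in NBTII-FGFR1, or 12.5% against the 18% called among all genes. It was the lipoprotein receptor gene Lrp8, at -0.86 ± 0.21 (adjusted p = 0.012). From 6 to 24 h 3 rose, or 37.5% against 16.5% of all genes, with Lrp8 at 0.69 ± 0.21 (adjusted p = 0.038). The others were Lipa, lysosomal acid lipase, at 0.75 ± 0.19 (adjusted p = 0.015), and Soat1, which esterifies cholesterol for storage, at 0.97 ± 0.23 (adjusted p = 0.0099). In NBTII Soat1 alone of the 8 rose from 2 to 6 h, by 0.93 ± 0.23 (adjusted p = 0.037), where 3.86% of all genes were called, and 0 passed from 6 to 24 h by limma, where 9.37% were. The count of 3 was 1 without either NBTII-FGFR1 24 h array and 0 without 6 h replicate 2. The count of 1 was 0 without 6 h replicate 2 and 2 without 6 h replicate 1 or 2 h replicate 2. Among 6 genes of the isoprenoid branch 0 passed at either step in NBTII-FGFR1, and in NBTII 1 did, Rabggta, a Rab prenyltransferase subunit, which rose by 0.74 ± 0.14 from 2 to 6 h (adjusted p = 0.011).

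Fatty acid synthesis is the other SREBP-driven pathway. Of 12 of its genes, 6 fell and 1 rose from 2 to 6 h in NBTII-FGFR1, where 18% of all genes were called, and 2 fell in NBTII, where 3.86% were. From 6 to 24 h 6 rose and 0 fell in NBTII-FGFR1 (16.5% of all genes called), and 3 rose and 0 fell in NBTII (9.37%). Elovl6, a fatty acid elongase, fell by 1.48 ± 0.20 and rose by 1.92 ± 0.20 in NBTII-FGFR1 (adjusted p = 0.00027 and 5e-05), and in NBTII it fell by 1.0 ± 0.20 and rose by 1.83 ± 0.20 (adjusted p = 0.013 and 0.0001). Scd2, a desaturase, fell by 1.87 ± 0.29 in NBTII-FGFR1 and fell by 1.16 ± 0.29 in NBTII (adjusted p = 0.00074 and 0.042). Acaca, acetyl-CoA carboxylase, fell by 1.39 ± 0.22 in NBTII-FGFR1 (adjusted p = 0.00078) and differed by -0.15 ± 0.22 in NBTII (adjusted p = 0.87); the difference between the lines was not tested for this gene alone. The 7 genes called at the first step in NBTII-FGFR1 were 4 without 2 h replicate 1 or without 6 h replicate 2.

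**Figure D4:**
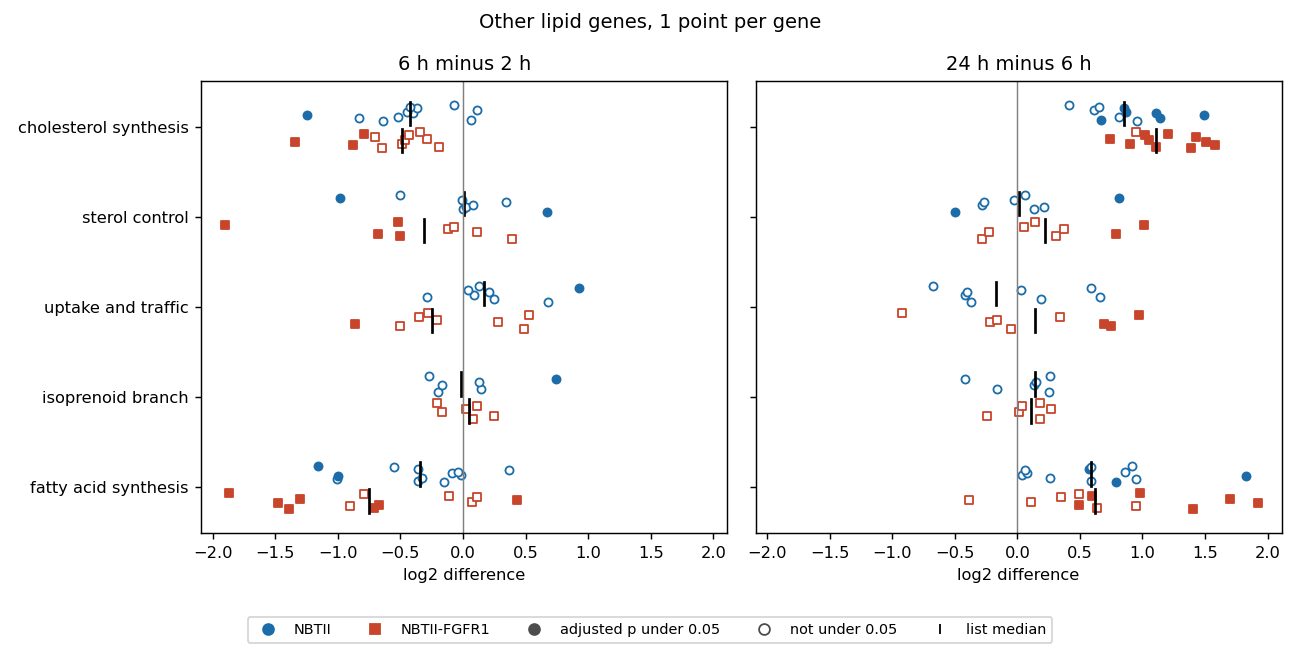
Log2 differences of single genes (points) in 5 lists of other lipid genes, for 6 h minus 2 h and 24 h minus 6 h, NBTII in blue circles and NBTII-FGFR1 in red squares, filled where the adjusted p is under 0.05, with a black bar at each list's median. Cholesterol synthesis has medians of -0.42 (NBTII) and -0.49 (NBTII-FGFR1) in the first step and 0.85 and 1.11 in the second, and the isoprenoid branch has medians of -0.02 and 0.05, then 0.14 and 0.11.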

How the data were processed

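The authors deposited log2 signals of 15923 probe sets, produced by RMA, per the submitters' processing notes (version: not given in the sources used here). RMA summarises several probes into 1 value and can compress differences of low signals. They were used without further normalization or a filter on low values, leaving out 57 control probe sets. Groups came from the sample titles. A linear model of 12 group means over all 21 arrays was fitted in limma 3.58.1 (R 4.3.3; 9 residual and 5.68 prior degrees of freedom), with contrasts for 20 comparisons, and p-values were adjusted by Benjamini-Hochberg over 15866 probe sets. The procedure was tested on simulated data with independent noise of the same size for all probe sets. That noise does not hold the replicate gaps shared by the members. The number of arrays limits precision. Tables were made with Python 3.11.15, pandas 2.3.3 and numpy 2.4.6, figures with matplotlib 3.10.9. The members and all gene lists were chosen with earlier results of these data known. Named were all members, up to 4 genes per list with the smallest p at 6 h against 2 h in each line, not all of them printed, and the 6 genes most correlated with the members. Alternatives covered dim probe sets, a replicate block, the arrays in the fit, quantile normalization, the variance model, each of 18 arrays left out, both doubted arrays left out, the mean of a gene's probe sets and Spearman correlation; leaving out arrays for the lists was chosen after seeing the data.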

Additional observations from a re-analysis of the deposited data

How the results depend on the processing

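Counts are of the 10 member probe sets. Of 200 differences, 47 passed; 0 of these reversed in the 24 alternatives tried for each, 31 lost their call in at least 1, and 16 kept it in all. Of the 153 that did not pass, 62 changed sign somewhere. Fitting only the arrays compared gave 2 in place of 8 (NBTII-FGFR1 6 h against 2 h), 4 in place of 8 (24 h against 6 h), 0 in place of 1 (48 h against 24 h; 2 h against 0 h) and 7 in place of 0 (48 h against 0 h). For NBTII it gave 7 in place of 4 (6 h against 2 h), 0 in place of 8 (6 h against 0 h) and 0 in place of 1 (2 h against 0 h), and 0 in place of 1 for the lines at 6 h, where the trend and robust setting also gave 0. Few residual degrees of freedom remain in fits of only the arrays compared. Trend and robust gave 7 in place of 8 for NBTII-FGFR1 6 h against 2 h. It gave 3 in place of 4 for NBTII at that step, and Insig1 lost its call in both lines. For NBTII 6 h against 0 h it gave 6 in place of 8. At 24 h against 6 h it gave 7 in place of 8 in NBTII-FGFR1 and 8 in place of 9 in NBTII. Leaving out dim probe sets gave 2 in place of 0 for NBTII-FGFR1 48 h against 0 h and 2 in place of 1 for NBTII 2 h against 0 h. At 6 h against 2 h it gave 9 in place of 8 in NBTII-FGFR1 and 5 in place of 4 in NBTII. At 6 h against 0 h it gave 6 in place of 5 in NBTII-FGFR1 and 9 in place of 8 in NBTII. Quantile normalization gave 1 in place of 0 for NBTII-FGFR1 48 h against 0 h and 6 in place of 4 for NBTII 6 h against 2 h. Without both doubted arrays NBTII-FGFR1 6 h against 2 h gave 5 and 2 h against 0 h gave 0. Whether replicate numbers pair the samples was left unsettled, and the main model did not pair them. The correlation of same-numbered deviations was above 0.1 in 15 of 36 pairs of groups (-0.131 to 0.348, median 0.0226). Over the 10 members the median gap of replicate 2 over replicate 1 was 1.18 in NBTII-FGFR1 24 h and 0.59 in NBTII-FGFR1 6 h. It was 0.27 in NBTII 48 h, 0.16 in NBTII 24 h, -0.19 in NBTII-FGFR1 2 h and 0.05 to 0.09 in the other groups with 2 arrays. Over all probe sets it was -0.04 to -0.0. A replicate block gave 0 in place of 1 for NBTII-FGFR1 2 h against 0 h, 1 in place of 0 for 48 h against 0 h, 2 in place of 1 for NBTII 2 h against 0 h, 2 in place of 1 for the mean line difference and 6 in place of 4 for NBTII 6 h against 2 h. The block also gave 7 in place of 5 for NBTII-FGFR1 6 h against 0 h. It gave 9 in place of 8 for NBTII-FGFR1 6 h against 2 h and for NBTII 6 h against 0 h.

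Leaving out 1 array at a time, the counts in NBTII-FGFR1 ranged from 5 to 9 (6 h against 2 h), 5 to 10 (24 h against 6 h), 0 to 3 (48 h against 24 h), 0 to 1 (2 h against 0 h) and 0 to 5 (24 h and 48 h against 0 h). In NBTII they ranged from 1 to 9 (6 h against 2 h), 4 to 10 (24 h against 6 h), 5 to 9 (6 h against 0 h) and 0 to 2 (2 h against 0 h). They were 1 to 3 for the mean line difference, and 0 to 1 for the lines at 6 h and for line by time at 6 h against 2 h. For the lists in NBTII-FGFR1 the range was 1 to 3 for cholesterol synthesis, 1 to 4 for sterol control, 0 to 2 for uptake and 4 to 7 for fatty acid synthesis (6 h against 2 h). At 24 h against 6 h it was 5 to 11 for cholesterol synthesis and 0 to 2 for sterol control and uptake. With the mean of a gene's probe sets, cholesterol synthesis gave 2 in place of 1 for NBTII 6 h against 2 h and uptake 2 in place of 1 for NBTII-FGFR1. For NBTII-FGFR1 at that step cholesterol synthesis gave 4 in place of 3 and sterol control 3 in place of 4. At 24 h against 6 h cholesterol synthesis gave 9 in place of 10 and uptake 4 in place of 3 in NBTII-FGFR1. In NBTII at that step cholesterol synthesis gave 8 in place of 6 and fatty acid synthesis 4 in place of 3. Spearman correlation kept 0 of the 6 genes most like the members. The 0.5 h arrays and the NBTII 0 h array were left out of no fit. The lists were refitted only without single NBTII-FGFR1 arrays of 2, 6 and 24 h, so their ranges do not cover the other arrays.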
